A study of Mus musculus with 9 samples.

Results

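Carboxylesterases of the mouse Ces family were followed by RNA-seq of liver. The 10 members described here, Ces1c, Ces1d, Ces1e, Ces1f, Ces1g, Ces2a, Ces2c, Ces2e, Ces3a and Ces3b, were taken by gene symbol from the 17154 genes listed in both deposited count tables. Another 8 genes with Ces symbols were in both tables and are given beside them. The 10 members were chosen with earlier results of these data known. Setting them beside all genes is therefore a description and not a test.

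There were 3 groups of 3 libraries, all from livers of adult male C57BL/6 mice. MMI+T3 mice were hypothyroid mice injected with triiodothyronine (T3), the active form of thyroid hormone, once a day on 5 days, with livers taken 24 hours after the final dose. MMI mice drank 0.1% methimazole, which stops the thyroid from making hormone, for 20 days. The study's methods add sodium perchlorate, which keeps iodide out of the thyroid, to the same water. Both groups carried the same water treatment and differed by the injections. CT mice were untreated controls. Whether each library is a separate mouse is not stated in the labels, and p-values therefore describe only how much these libraries vary, which may be technical. All CT counts came in a separate table, and an effect of the table and an effect of the group cannot be told apart in any comparison with CT.

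Carboxylesterases are serine hydrolases that cleave ester, thioester and amide bonds, and most liver members reside in the lumen of the endoplasmic reticulum. They handle both foreign esters, such as prodrugs and insecticides, and the body's own lipids, since several Ces1 members hydrolyse stored triacylglycerol and influence the lipid load of very-low-density lipoprotein (VLDL). Mice carry many more copies than humans, arranged in tandem.

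In the GENCODE M21 models of GRCm38, the family lay in 2 clusters on chromosome 8. The Ces1 cluster held 9 genes, Ces5a included, on the minus strand between positions 93020214 and 93535830. The second cluster held 10 protein-coding genes from Ces2a to Ces4a on the plus strand between 104734003 and 105150109. The tandem copies remain close in sequence. Ces3a and Ces3b were identical at 95.27% of 1713 aligned coding bases, the closest pair among the members. The 5 Ces1 members were identical to one another at 74.57% to 81.53% and the 3 Ces2 members at 83.01% to 84.01%. Outside the members, Ces1c was closest to Ces1b (91.14%) and Ces2c to Ces2b (92.09%).

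The start of the coding sequence is shown for Ces3b and Ces3a because these near-identical neighbours gave different results below, and reads can be assigned to one or the other only where they differ. This window of 120 bases was picked because it held the most differences, so the pair looks less alike here than over the whole coding sequence. Capitals mark the 16 bases that differ within coding bases 1 to 120, read 5′ to 3′ from the GENCODE M21 transcripts.
Ces3b: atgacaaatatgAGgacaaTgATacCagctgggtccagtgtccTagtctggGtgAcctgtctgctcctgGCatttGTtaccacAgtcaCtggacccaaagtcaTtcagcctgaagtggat
Ces3a: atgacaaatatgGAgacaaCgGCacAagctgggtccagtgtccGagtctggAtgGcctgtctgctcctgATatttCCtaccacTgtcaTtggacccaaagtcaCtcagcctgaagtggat
A window of 120 coding bases, 220 to 339, is shown likewise for Ces1c and Ces1b, with capitals at the 20 bases that differ. It too was picked as the window with the most differences between its pair.
Ces1c: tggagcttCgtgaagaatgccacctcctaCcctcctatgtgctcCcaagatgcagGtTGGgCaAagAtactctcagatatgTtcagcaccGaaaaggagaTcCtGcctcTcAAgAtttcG
Ces1b: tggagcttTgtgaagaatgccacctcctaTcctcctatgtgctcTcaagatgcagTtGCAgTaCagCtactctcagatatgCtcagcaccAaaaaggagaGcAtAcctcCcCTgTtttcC
The longest run of identical coding bases was 194 for the Ces3 pair and 118 for Ces1c and Ces1b. Sequenced reads were 150 bases long at each end of a fragment. Of all stretches of 150 bases in their transcripts, Ces3b shared 1.87% and Ces3a 2.2% with another gene, Ces2c shared 3.35%, Ces2a 3.04%, and the other 6 members shared 0. How the counting treated reads that match several genes was not given in the sources used here.

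Promoter windows from 250 bases before to 50 after the transcription start were taken from RefSeq (GRCm38.p6) and matched 7 of the 10 members; Ces1d, Ces1f and Ces3a had no entry. They are shown for members that rose after T3 (Ces3b, Ces2c), for members that fell (Ces1e, Ces1g), for Ces2a, which did not pass the test, and for the further gene Ces4a, which had the largest change of the Ces genes tested. Each is written 5′ to 3′ in the direction of transcription. Capitals mark matches on either strand to 4 motifs, AGGTCA, a half-site of nuclear receptors, TATAAA, the core promoter box, GTTAAT, a half-site of HNF1, and CCAAT, a common promoter box.
Ces3b, chr8:105083505-105083804, plus strand: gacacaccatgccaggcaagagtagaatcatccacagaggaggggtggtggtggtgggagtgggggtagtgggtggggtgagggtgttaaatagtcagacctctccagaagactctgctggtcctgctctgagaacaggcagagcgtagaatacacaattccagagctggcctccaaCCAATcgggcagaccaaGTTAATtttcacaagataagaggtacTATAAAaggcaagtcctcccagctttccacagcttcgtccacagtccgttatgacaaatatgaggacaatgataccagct
Ces2c, chr8:104846818-104847117, plus strand: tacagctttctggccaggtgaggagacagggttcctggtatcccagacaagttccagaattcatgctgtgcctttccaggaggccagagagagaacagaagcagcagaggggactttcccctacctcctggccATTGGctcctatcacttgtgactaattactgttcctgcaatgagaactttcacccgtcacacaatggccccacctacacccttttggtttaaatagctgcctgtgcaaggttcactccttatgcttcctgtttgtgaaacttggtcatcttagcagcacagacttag
Ces2a, chr8:104733753-104734052, plus strand: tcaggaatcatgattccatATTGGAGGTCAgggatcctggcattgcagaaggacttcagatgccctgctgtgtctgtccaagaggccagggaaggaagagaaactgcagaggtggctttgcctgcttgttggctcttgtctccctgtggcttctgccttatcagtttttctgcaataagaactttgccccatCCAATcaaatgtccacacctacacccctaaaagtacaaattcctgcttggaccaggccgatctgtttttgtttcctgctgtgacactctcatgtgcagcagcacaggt
Ces1e, chr8:93229570-93229869, minus strand: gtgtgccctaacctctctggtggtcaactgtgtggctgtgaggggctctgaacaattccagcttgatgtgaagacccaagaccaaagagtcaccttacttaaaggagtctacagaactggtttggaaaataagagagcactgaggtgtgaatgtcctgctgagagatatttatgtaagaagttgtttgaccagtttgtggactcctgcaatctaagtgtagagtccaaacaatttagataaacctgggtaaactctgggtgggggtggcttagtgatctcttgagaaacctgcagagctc
Ces1g, chr8:93337160-93337459, minus strand: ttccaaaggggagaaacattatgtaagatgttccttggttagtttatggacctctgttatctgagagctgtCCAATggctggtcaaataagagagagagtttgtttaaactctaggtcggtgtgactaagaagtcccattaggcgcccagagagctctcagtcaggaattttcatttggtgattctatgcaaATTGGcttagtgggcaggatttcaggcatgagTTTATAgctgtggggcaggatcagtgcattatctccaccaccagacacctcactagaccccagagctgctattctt
Ces4a, chr8:105131550-105131849, plus strand: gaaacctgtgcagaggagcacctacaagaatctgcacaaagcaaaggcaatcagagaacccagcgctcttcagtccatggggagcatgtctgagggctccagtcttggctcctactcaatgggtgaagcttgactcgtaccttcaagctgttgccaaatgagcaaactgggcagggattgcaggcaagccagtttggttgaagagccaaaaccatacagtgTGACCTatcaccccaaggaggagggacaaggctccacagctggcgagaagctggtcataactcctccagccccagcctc
TATAAA was found in Ces3b, at position -30 from the start, and on the opposite strand in Ces1g at -26. Of all 32851 RefSeq windows of this length, 13.6% held it. GTTAAT was found in Ces3b alone among the 7 members, and 7.1% of all windows held it. AGGTCA was found in Ces2a at -226, and its reverse complement in Ces4a at -29, against 16.3% of all windows. CCAAT was found in Ces1c, Ces1g, Ces2a, Ces2c and Ces3b, and 37.4% of all windows held it. None of the 4 motifs was found in the Ces1e window or in that of Ces2e. Members that rose and members that fell are both among those with CCAAT and TATAAA, and a match is a description of these letters, not a binding site.

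Library totals ranged from 17256776 to 22599227 counts. MMI replicate 3 had the lowest total and the highest share of mitochondrial counts (4.991%, against 3.291% to 3.76% in the other 8 libraries). Results that rest on it are therefore given with and without it, except for genes below the count filter. Summed levels of 10 hepatocyte markers were 27053 to 28584 CPM (normalised read counts relative to the scaled library total) in MMI+T3. The sums were 34974 to 37944 CPM in MMI and 43376 to 45830 CPM in CT, and no marker was at 0 in any group. Alb was the largest part of each sum, with means of 12158, 20197 and 24353 CPM in MMI+T3, MMI and CT. In MMI+T3 against MMI, 4 of these markers fell and 1 rose, beside 7.18% and 9.83% of all genes. All 12 macrophage and Kupffer cell markers rose, beside 9.83% of all genes. Their summed levels were 348.5 to 679.4 CPM in MMI+T3, 120.9 to 158.5 CPM in MMI and 147.8 to 188 CPM in CT. Of 12 endothelial markers, 3 were higher in MMI than in CT, beside 2.48% of all genes. In MMI+T3 against CT 6 were higher, beside 13.3% of all genes. Summed levels of the endothelial markers were 389 to 412.1 CPM in MMI+T3, 362.4 to 444.4 CPM in MMI and 261.9 to 339.9 CPM in CT. The part of these shifts in the results below was not tested. In whole liver, a change in the number of cells of a type and a change in marker transcripts per cell cannot be told apart.

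The 10 members were abundant and unequal. Levels of different genes were compared as CPM per kilobase of exon. The order of the means differed between the groups. In MMI+T3 livers Ces3b stood in place 3, at 359.1 ± 73.45 CPM per kilobase (SD, n = 3), and overlapped with Ces3a above it and Ces2a below it. In MMI livers it stood in place 8, at 72.35 ± 28.14 CPM per kilobase, and overlapped with Ces1e and Ces2e. Ces1f was the lowest of the 10 in MMI+T3 livers, at 21.66 ± 0.4513 CPM per kilobase, and stood in place 6 in MMI livers, at 170.1 ± 25.13 CPM per kilobase. Ces2c was in place 7 in MMI+T3 livers (62.53 ± 13.4 CPM per kilobase) and last in MMI livers (16.47 ± 2.965 CPM per kilobase). Ces1c was first in all 3 groups. These places held per kilobase of coding sequence except for Ces1f, which stood above Ces1e in MMI+T3 livers (42.28 ± 0.8809 against 35.89 ± 7.257 CPM per coding kilobase) and above Ces2a in MMI livers (331.9 ± 49.06 against 287.4 ± 36.63 CPM per coding kilobase), with overlapping ranges in both. On that scale Ces3b and Ces2a did not overlap in MMI+T3 livers.

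In CT livers, Ces1c had the highest mean, 1072 ± 43.7 CPM per kilobase, followed by Ces3a with 964.5 ± 118.3, and the ranges of these neighbours overlapped. Ces1d followed at 442.3 ± 35.35 CPM per kilobase and stood apart from the genes on either side. Ces2a (287.5 ± 13.53) and Ces3b (268.1 ± 44.58) overlapped. Ces1f (192.1 ± 1.971) and Ces1g (176.7 ± 17.72) did not overlap with each other or with their neighbours, although per kilobase of coding sequence Ces1f lay within the range of Ces3b. Ces1e (116.5 ± 18.89) and Ces2e (79.53 ± 15.74) overlapped, and Ces2c was lowest at 24.68 ± 5.054 CPM per kilobase.

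To see how T3 changed the family, MMI+T3 livers were compared to MMI livers. Ces3b and Ces2c rose, and Ces1f, Ces1e, Ces1d, Ces1g and Ces2e fell. Ces1c, Ces2a and Ces3a did not pass the test, by the edgeR quasi-likelihood test at a threshold of 0.05, with p adjusted over all 14109 genes after Benjamini and Hochberg. Of all genes tested, 9.83% rose and 7.18% fell, beside 2 and 5 of the 10 members. The groups did not overlap for 8 members, and 34.9% of all genes had groups that did not overlap. The median log2 fold change was -0.47 over the members and -0.02 over all genes. Each of the 7 members stayed past the threshold, in the same direction, when each of the 6 libraries was left out in turn, MMI replicate 3 included.

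**Figure D1:**
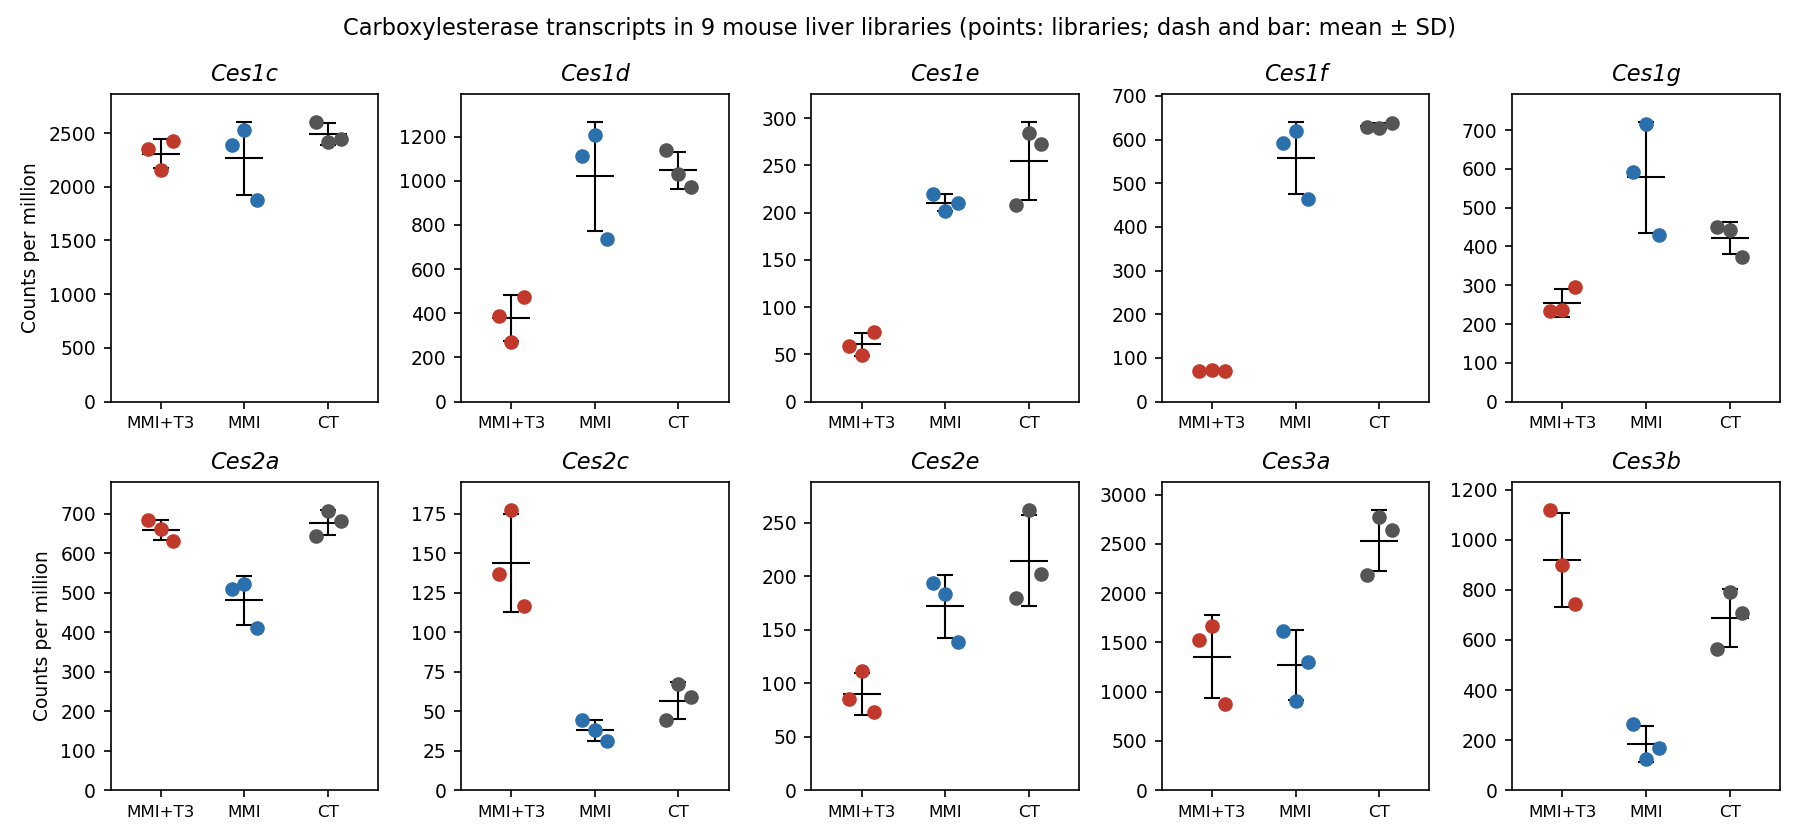
Normalised read counts (CPM, linear axes from 0, scaled separately for each gene) of the 10 members, with 1 point per library, a dash for the mean and a bar for the SD (n = 3). Ces1f lies between 70.09 and 72.85 CPM in the MMI+T3 libraries, against 464.6 to 619 CPM in the MMI libraries, while Ces3b lies between 744.6 and 1119 CPM in MMI+T3 and between 124 and 265 CPM in MMI.

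The Ces1 members linked to triacylglycerol turnover fell after T3. Ces1f, one of the triacylglycerol hydrolases of the family (ENSMUSG00000031725, chromosome 8, 93256236 to 93279747, minus strand), had 70.09, 72.85 and 70.52 CPM in MMI+T3 libraries, against 592.5, 619 and 464.6 CPM in MMI libraries. The MMI+T3 libraries lay close together and far below the lowest MMI library. The log2 fold change was -2.99 (SE 0.15, adjusted p = 6.99e-07), 7.945-fold lower in MMI+T3.

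Ces1d, the triacylglycerol hydrolase that mobilises stored lipid for VLDL assembly (ENSMUSG00000056973, 93166068 to 93197838, minus strand), had 388.4, 269.1 and 475 CPM in MMI+T3 libraries, against 1112, 1209 and 737.9 CPM in MMI libraries. MMI replicate 3 was the lowest of its group and still above all MMI+T3 libraries. Ces1d fell by 1.45 on the log2 scale (SE 0.24, adjusted p = 0.00176). Ces1g, which limits hepatic triacylglycerol storage and VLDL secretion (ENSMUSG00000057074, 93302369 to 93337308, minus strand), had 233.7, 235 and 296.6 CPM in MMI+T3 libraries, against 591, 715.7 and 430.4 CPM in MMI libraries. All MMI+T3 libraries were lower, and the log2 fold change was -1.20 (SE 0.19, adjusted p = 0.00161).

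Ces1e, or egasyn, the esterase that retains beta-glucuronidase in the endoplasmic reticulum (ENSMUSG00000061959, 93201218 to 93229619, minus strand), fell as well. It had 58.86, 49.18 and 73.48 CPM in MMI+T3 libraries, against 219.3, 201.9 and 210.4 CPM in MMI libraries. All MMI+T3 libraries were below all MMI libraries, and the log2 fold change was -1.82 (SE 0.16, adjusted p = 3.08e-05), 3.522-fold lower. Gusb, which encodes beta-glucuronidase, did not pass the test, with 36.43, 32.95 and 40.51 CPM in MMI+T3 libraries, against 25.08, 31.25 and 20.05 CPM in MMI libraries (log2 fold change 0.51, SE 0.17, adjusted p = 0.0642). Its adjusted p was 0.0213 without MMI replicate 2 and 0.0301 with all 9 libraries in 1 fit.

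Ces1c, a secreted plasma carboxylesterase of rodents (ENSMUSG00000057400, 93099015 to 93131283, minus strand), did not pass the test. It had 2348, 2157 and 2422 CPM in MMI+T3 libraries, against 2392, 2526 and 1880 CPM in MMI libraries. The groups overlapped, and the log2 fold change of 0.01 (SE 0.16, adjusted p = 0.977) had no stable sign, being -0.10 without MMI replicate 3.

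Among the Ces2 members, which hydrolyse prodrug esters and, in mice, acylglycerols, the 3 genes gave 3 different results. Ces2c (ENSMUSG00000061825, 104847068 to 104854483, plus strand) had 137, 177.3 and 116.8 CPM in MMI+T3 libraries, against 44.54, 38.07 and 30.91 CPM in MMI libraries. Every MMI+T3 library was above every MMI library, and Ces2c rose by 1.91 on the log2 scale (SE 0.19, adjusted p = 5.27e-05), 3.748-fold. Ces2e (ENSMUSG00000031886, 104926260 to 104934672, plus strand) had 85.2, 111.2 and 72.8 CPM in MMI+T3 libraries, against 193.6, 183.8 and 138.5 CPM in MMI libraries. Its groups did not overlap in the other direction, and the log2 fold change was -0.96 (SE 0.18, adjusted p = 0.00433).

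Ces2a (ENSMUSG00000055730, 104734003 to 104741634, plus strand) had 684.8, 660.9 and 632.8 CPM in MMI+T3 libraries, against 510.8, 521.9 and 410.6 CPM in MMI libraries. The groups did not overlap, but the log2 fold change of 0.44 (SE 0.14) missed the threshold (adjusted p = 0.0612). It passed with DESeq2 (adjusted p = 0.0189), with all 9 libraries in 1 fit (0.0187) and with a stricter filter on low counts (0.0476).

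The Ces3 pair, carboxylesterases of the liver, split. Ces3b (ENSMUSG00000062181, 105083753 to 105093929, plus strand) had 1119, 899.1 and 744.6 CPM in MMI+T3 libraries, against 265, 124 and 167.7 CPM in MMI libraries. The lowest MMI+T3 library was well above the highest MMI library. Ces3b rose by 2.29 on the log2 scale (SE 0.27, adjusted p = 0.000178), 4.893-fold, the largest rise among the members. Ces3a (ENSMUSG00000069922, 105048601 to 105058413, plus strand) had 1524, 1667 and 878.1 CPM in MMI+T3 libraries, against 1617, 908 and 1301 CPM in MMI libraries. The groups overlapped and the spread within each was wide. The log2 fold change was 0.07 (SE 0.26, adjusted p = 0.896), between -0.13 and 0.31 with 1 library left out.

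Within a library, the ratio of Ces3b to Ces3a CPM does not depend on library scaling. It was 0.7346, 0.5392 and 0.848 in MMI+T3 libraries, against 0.1639, 0.1366 and 0.1289 in MMI libraries and 0.2586, 0.2848 and 0.2679 in CT libraries. The ratio was 4.882-fold higher in MMI+T3 than in MMI, and the 3 groups did not overlap. The ratio of Ces1c to Ces1f was 33.49, 29.61 and 34.34 in MMI+T3 libraries, against 4.038, 4.081 and 4.048 in MMI libraries and 4.151, 3.861 and 3.833 in CT libraries. It was 7.992-fold higher in MMI+T3 than in MMI, while MMI and CT overlapped (p = 0.4, exact permutation test, two-sided). In MMI+T3 against MMI, Ces1c and Ces3a had log2 fold changes of 0.01 and 0.07. There both ratios mostly restate the changes of Ces1f and Ces3b and are not further evidence. For every other comparison of these pairs and of Ces1c to Ces1b the exact two-sided permutation p was 0.1, the smallest that 3 against 3 libraries can give, and 0.1125 after adjustment over 9 tests. Each gene of the Ces3 pair shared 25.6% to 30.2% of its 50-base stretches with the other, but only 1.87% to 2.2% of its 150-base stretches. The treatment of reads that match both genes was not given, so an exchange of reads between them cannot be measured here.

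**Figure D2:**
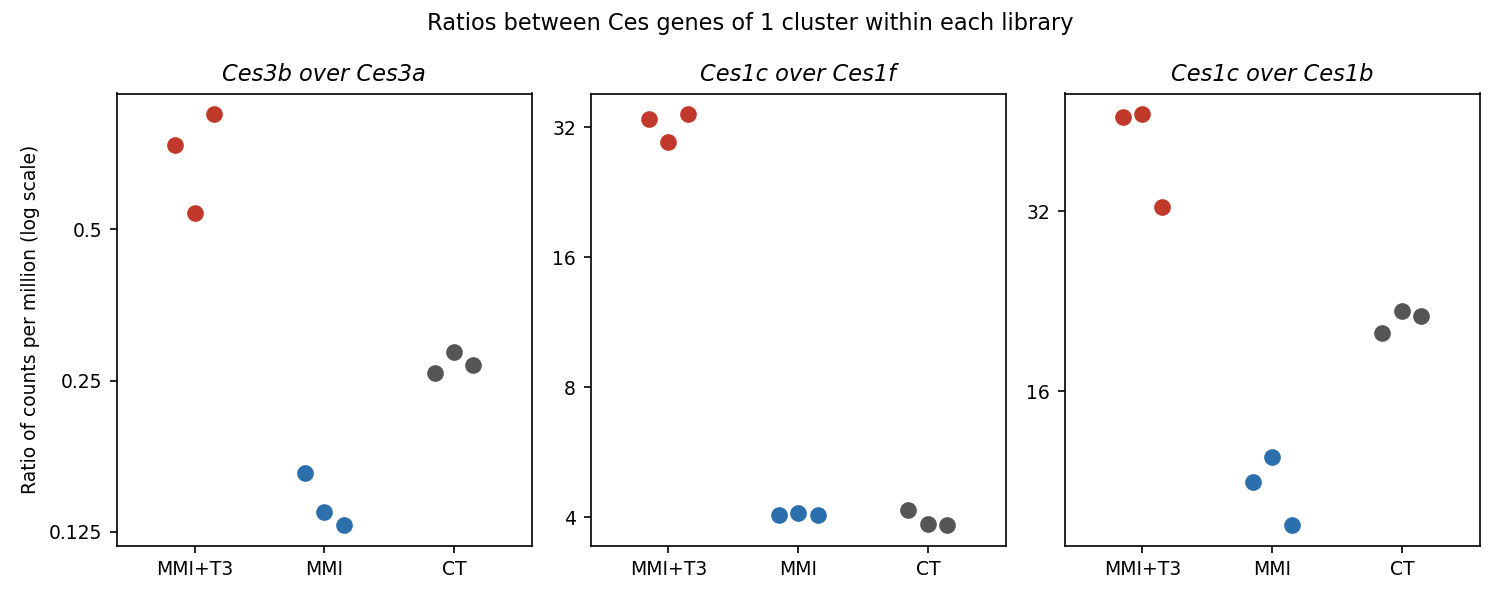
Ratio of CPM between 2 genes of a cluster in each library, on a log scale, with 1 point per library. Ces3b over Ces3a is 0.5392 to 0.848 in MMI+T3, 0.1289 to 0.1639 in MMI and 0.2586 to 0.2848 in CT. Ces1c over Ces1f is 29.61 to 34.34 in MMI+T3 and 3.833 to 4.151 in the other 6 libraries, and Ces1c over Ces1b is 32.48 to 46.47 in MMI+T3, 9.561 to 12.41 in MMI and 20.05 to 21.75 in CT.

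Hypothyroid livers were then compared to control livers. Only the Ces3 pair passed the test, both lower in MMI than in CT. Of the 13925 genes tested, 2.48% rose and 2.8% fell, beside 0 and 2 of the 10 members. Non-overlapping groups were found for 4 members (Ces1f, Ces2a, Ces3a and Ces3b), against 26.4% of all genes. The median log2 fold change was -0.28 over the members and 0.01 over all genes.

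Ces3b had 265, 124 and 167.7 CPM in MMI libraries, against 564.7, 790.7 and 707.4 CPM in CT libraries. All MMI libraries were below the lowest CT library. The log2 fold change was -1.87 (SE 0.25, adjusted p = 0.00133), 3.666-fold lower in MMI. Ces3a had 1617, 908 and 1301 CPM in MMI libraries, against 2184, 2777 and 2641 CPM in CT libraries. Every MMI library was below every CT library, and Ces3a fell by 0.97 on the log2 scale (SE 0.20, adjusted p = 0.0173). This call was lost without CT replicate 2 (adjusted p = 0.083) and without CT replicate 3 (adjusted p = 0.0666), which left 1 member called.

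Among the members below the threshold, Ces2a had 510.8, 521.9 and 410.6 CPM in MMI libraries, against 644.4, 707.9 and 682.1 CPM in CT libraries. Its groups did not overlap, with a log2 fold change of -0.48 (SE 0.13, adjusted p = 0.0638). Ces2c had 44.54, 38.07 and 30.91 CPM in MMI libraries, against 44.2, 67.14 and 58.81 CPM in CT libraries, and its groups overlapped (log2 fold change -0.57, SE 0.18, adjusted p = 0.0975). Ces1g had 591, 715.7 and 430.4 CPM in MMI libraries, against 450.1, 442.5 and 373.3 CPM in CT libraries. MMI replicate 3 lay within the CT range, and the log2 fold change was 0.47 (SE 0.18, adjusted p = 0.171). Without MMI replicate 3, Ces1g (0.64, adjusted p = 0.0143) and Ces2a (-0.38, adjusted p = 0.0433) passed, and without CT replicate 1 so did Ces2c (-0.73, adjusted p = 0.0495). With DESeq2, Ces2a (-0.50, adjusted p = 0.0101) and Ces2c (-0.59, adjusted p = 0.0357) passed. Ces2a also passed with all 9 libraries in 1 fit (-0.49, adjusted p = 0.0329). The remaining Ces1c, Ces1d, Ces1e, Ces1f and Ces2e had log2 fold changes between -0.30 and -0.02, with adjusted p between 0.347 and 0.958.

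Finally, T3-treated hypothyroid livers were compared to control livers. Ces2c was higher in MMI+T3, and Ces1f, Ces1e, Ces1d, Ces2e, Ces3a and Ces1g were lower. Ces1c, Ces2a and Ces3b did not pass the test. Of the 13847 genes tested, 13.3% rose and 12.3% fell, beside 1 and 6 of the 10 members. The groups did not overlap for 7 members, against 42.2% of all genes. The median log2 fold change was -0.82 over the members and 0.01 over all genes. This comparison shares its libraries with the previous 2, so the values are given side by side and not as further evidence. The 7 calls held with each of the 6 libraries left out in turn.

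Ces1f had 70.09, 72.85 and 70.52 CPM in MMI+T3 libraries, against 628, 626.4 and 638.3 CPM in CT libraries. Both groups were tight, and the log2 fold change was -3.16 (SE 0.09, adjusted p = 2.36e-08), 8.929-fold lower in MMI+T3. Ces1e had 58.86, 49.18 and 73.48 CPM in MMI+T3 libraries, against 207.9, 284.8 and 272.6 CPM in CT libraries, a log2 fold change of -2.08 (SE 0.16, adjusted p = 1.21e-05). Ces1d fell by 1.48 (SE 0.18, adjusted p = 0.000205), Ces2e by 1.27 (SE 0.17, adjusted p = 0.000456) and Ces1g by 0.74 (SE 0.12, adjusted p = 0.00172) on the log2 scale.

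Ces2c had 137, 177.3 and 116.8 CPM in MMI+T3 libraries, against 44.2, 67.14 and 58.81 CPM in CT libraries. Every MMI+T3 library was above every CT library, and Ces2c was 2.518-fold higher (log2 fold change 1.33, SE 0.18, adjusted p = 0.000372). Ces3b had 1119, 899.1 and 744.6 CPM in MMI+T3 libraries, against 564.7, 790.7 and 707.4 CPM in CT libraries. MMI+T3 replicate 3 lay within the CT range, and the log2 fold change of 0.41 (SE 0.16) missed the threshold (adjusted p = 0.0855). Without that library Ces3b passed (0.54, adjusted p = 0.0243), and DESeq2 gave an adjusted p of 0.0411 with all libraries. Ces3a fell by 0.91 on the log2 scale in MMI+T3 (SE 0.21, adjusted p = 0.00869), with 1524, 1667 and 878.1 CPM in MMI+T3 libraries, against 2184, 2777 and 2641 CPM in CT libraries. Ces2a overlapped with CT (log2 fold change -0.05, SE 0.09, adjusted p = 0.721), as did Ces1c (-0.12, SE 0.10, adjusted p = 0.405).

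**Figure D3:**
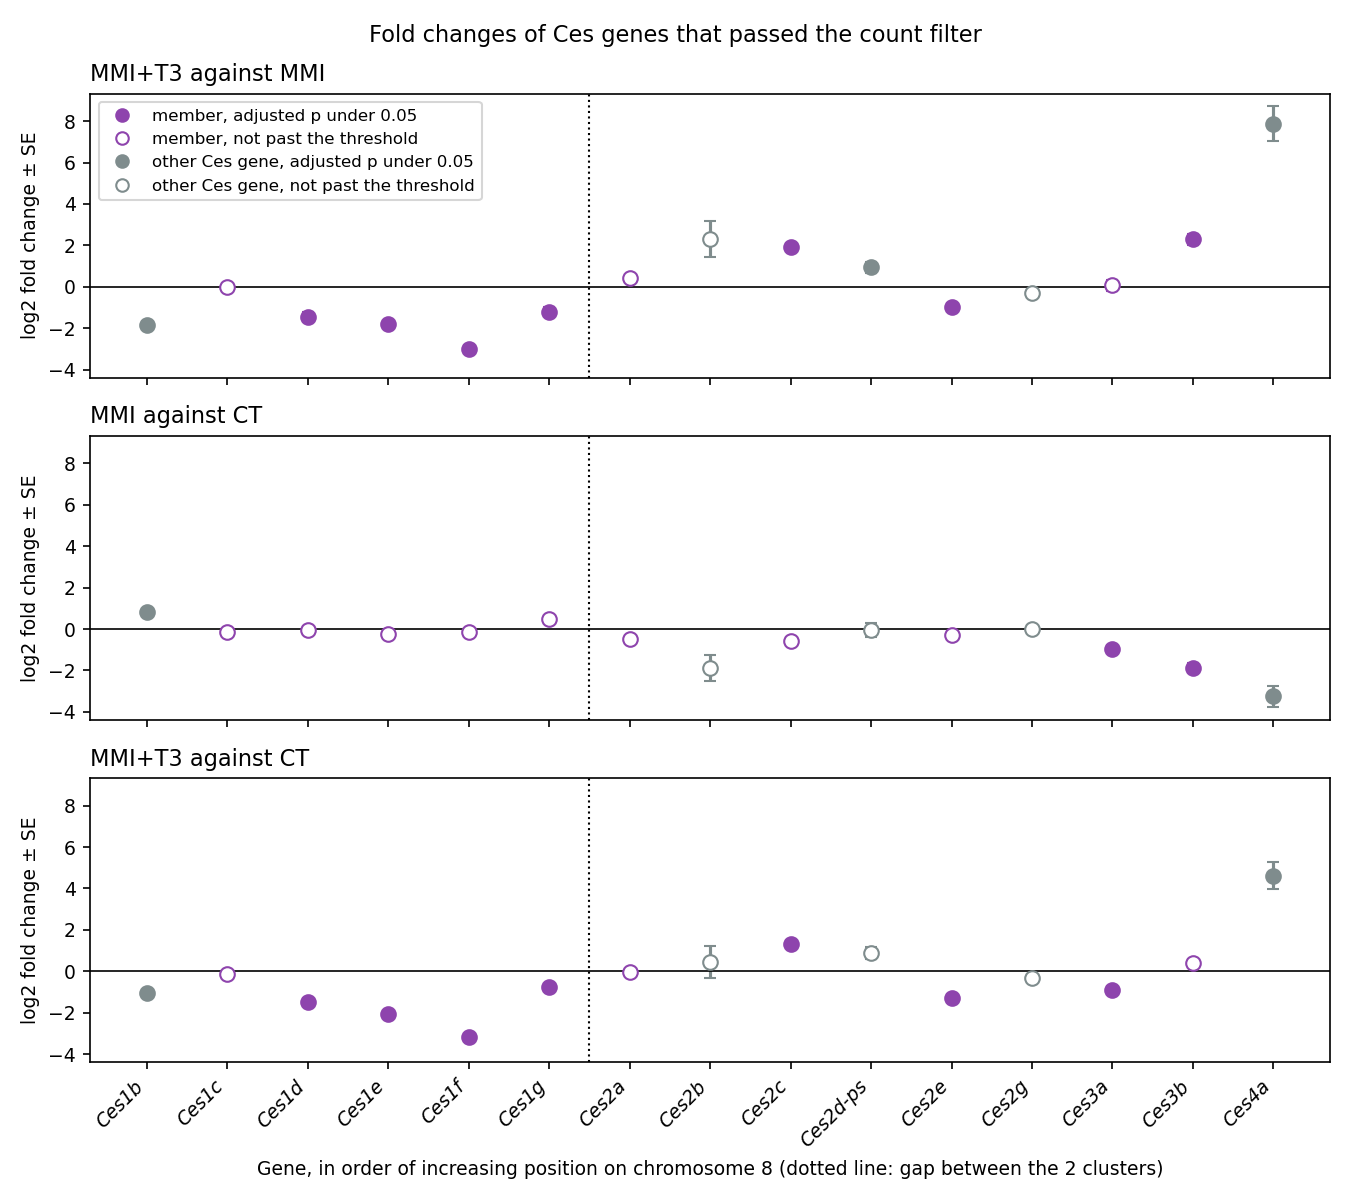
Log2 fold change with its SE for the 10 members (purple) and 5 other Ces genes that passed the count filter (grey), in order along chromosome 8, for MMI+T3 against MMI, MMI against CT and MMI+T3 against CT from top to bottom. Filled points passed the test, and an SE smaller than a point is hidden behind it. Ces1b, Ces1d, Ces1e, Ces1f and Ces1g lie below 0 in the top and bottom panels, while Ces4a lies at 7.87, -3.25 and 4.62.

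Summed over the 10 members, the family reached 6244 ± 435.6 CPM in MMI+T3, 6786 ± 911 CPM in MMI and 9018 ± 381 CPM in CT (SD, n = 3 each). The MMI+T3 and MMI sums overlapped, and both lay below all CT sums, of which the lowest was 8648 CPM. The 5 Ces1 members summed to 3073 ± 277.9 CPM in MMI+T3, 4634 ± 809.2 CPM in MMI and 4847 ± 167.7 CPM in CT. Only the MMI+T3 sums stood apart from the other groups. The 2 Ces3 members summed to 2277 ± 568 CPM in MMI+T3, 1461 ± 425.1 CPM in MMI and 3221 ± 424.4 CPM in CT, and the 3 Ces2 members to 892.9 ± 64.66, 690.9 ± 96.11 and 949.5 ± 84.57 CPM in the same groups.

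The make-up of this sum differed. Ces3b gave 14.66% ± 2.008 of it in MMI+T3, 2.727% ± 0.8917 in MMI and 7.599% ± 0.9653 in CT. Ces1f gave 1.143% ± 0.08342 in MMI+T3, 8.23% ± 0.4878 in MMI and 7.005% ± 0.3122 in CT. Ces1c gave 37.14% ± 4.138 in MMI+T3, 33.38% ± 2.167 in MMI and 27.68% ± 2.258 in CT. Ces1d, at 6.11% ± 1.985 in MMI+T3, was at 14.9% ± 2.193 in MMI and 11.65% ± 1.314 in CT.

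**Figure D4:**
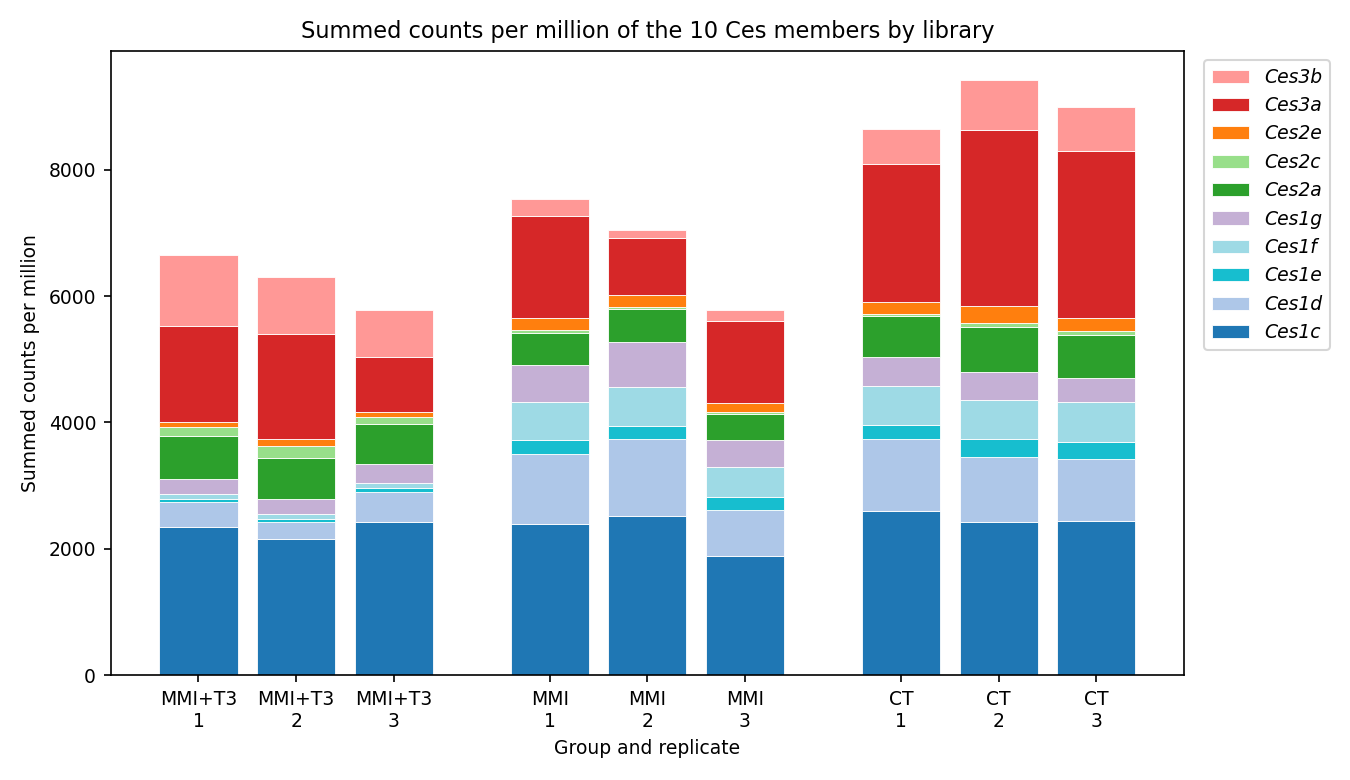
Stacked CPM of the 10 members in each of the 9 libraries, from Ces1c at the bottom to Ces3b at the top. The bars reach 5783 to 6649 CPM in MMI+T3, 5773 to 7538 CPM in MMI and 8648 to 9409 CPM in CT, and the Ces3b segment at the top is 124 to 265 CPM tall in the MMI libraries.

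Of the 8 other Ces genes in the tables, 5 passed the count filter. Ces1b, the neighbour of Ces1c shown above, had 51.17, 46.41 and 74.55 CPM in MMI+T3 libraries, against 212.3, 203.5 and 196.7 CPM in MMI libraries and 130, 111.2 and 114.6 CPM in CT libraries. The 3 groups did not overlap. Ces1b fell by 1.85 on the log2 scale in MMI+T3 against MMI (SE 0.18, adjusted p = 5.97e-05) and was 0.80 higher in MMI than in CT (SE 0.12, adjusted p = 0.0029). In MMI+T3 against CT it fell by 1.06 (SE 0.16, adjusted p = 0.000981).

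Ces4a, at the far end of the second cluster (ENSMUSG00000060560, 105131800 to 105150109, plus strand), had 1722, 1420 and 245 counts in MMI+T3 libraries, against 2, 8 and 5 counts in MMI libraries and 33, 41 and 62 counts in CT libraries. The groups did not overlap, although MMI+T3 replicate 3 was far below the other libraries of its group. The log2 fold change was 7.87 in MMI+T3 against MMI (SE 0.84, adjusted p = 9.55e-05), -3.25 in MMI against CT (SE 0.52, adjusted p = 0.00461) and 4.62 in MMI+T3 against CT (SE 0.65, adjusted p = 0.000584). With 1 library left out, the first of these ranged from 7.39 to 8.37. The second missed the threshold with all 9 libraries in 1 fit (adjusted p = 0.0696). None of the 50-base stretches of Ces4a was shared with another gene.

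Ces2d-ps, an unprocessed pseudogene that holds 38.2% of the 50-base stretches of Ces2c, had 68, 87 and 69 counts in MMI+T3 libraries, against 51, 40 and 32 counts in MMI libraries and 30, 50 and 38 counts in CT libraries. It passed in MMI+T3 against MMI (log2 fold change 0.94, SE 0.28, adjusted p = 0.0389). The call was lost without MMI+T3 replicate 1 (0.0948), 2 (0.14) or 3 (0.0637) and without MMI replicate 2 (0.101) or 3 (0.0717). Its counts were a small part of those of Ces2c, which had 2621, 3648 and 2402 counts in MMI+T3 libraries, against 982, 887 and 589 counts in MMI libraries. Of the stretches of Ces2d-ps, 76.9% of those of 50 bases and 46.7% of those of 150 bases were shared with another gene. How many Ces2d-ps counts came from other copies cannot be measured here.

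Ces2g had 43.96, 52.1 and 38.81 CPM in MMI+T3 libraries, against 58.46, 65.76 and 41.99 CPM in MMI libraries, and passed in none of the 3 comparisons. It passed in MMI+T3 against MMI without MMI replicate 3 (log2 fold change -0.48, adjusted p = 0.0457) and in MMI+T3 against CT without MMI+T3 replicate 2 (-0.44, adjusted p = 0.027). Ces2b was near the limit of detection, with 5, 70 and 14 counts in MMI+T3 libraries, against 6, 3 and 9 counts in MMI libraries and 9, 22 and 32 counts in CT libraries. MMI+T3 replicate 2 held most counts of its group. The log2 fold change in MMI+T3 against MMI was 2.31 (SE 0.88, adjusted p = 0.101), and it was 0.71 without that library. It passed with DESeq2 (2.33, adjusted p = 0.0307) and without MMI+T3 replicate 1 (2.80, adjusted p = 0.0362).

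Ces1a, Ces1h and Ces2h did not pass the count filter. Ces1a had 2, 4 and 3 counts in MMI+T3 libraries, against 10, 29 and 36 counts in MMI libraries and 5, 4 and 2 counts in CT libraries. Ces1h had 6, 5 and 5 counts in MMI+T3 libraries, against 10, 44 and 46 counts in MMI libraries, and 0 counts in each CT library. Against a floor of 3 counts over the CT group, the pooled Ces1h counts, scaled to library totals, were 34.07-fold higher in MMI and 5.645-fold higher in MMI+T3. These pooled values take no account of the spread between libraries, and the CT zeros came in the separate table. Fitted without a filter, both genes were lower in MMI+T3 than in MMI, with log2 fold changes of -2.95 for Ces1a (adjusted p = 0.0102) and -2.55 for Ces1h (adjusted p = 0.0165). The highest MMI counts of both were in replicates 2 and 3, and no unfiltered fit without MMI replicate 3 was run. Ces2h had 8, 19 and 8 counts in MMI+T3 libraries, against 0, 5 and 3 counts in MMI libraries and 3, 8 and 1 counts in CT libraries. Ces2f and Ces5a were not listed in both tables, so their levels were not compared.

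Protein-coding genes next to the clusters that passed the filter, chosen by position after the values were known, were set beside them in MMI+T3 against MMI. Lpcat2 (log2 fold change 0.59, adjusted p = 0.389), before the Ces1 cluster, and Ciao2b (0.14, adjusted p = 0.604), before the second cluster, did not pass the test. Cbfb, which follows Ces4a, was 0.66 higher (SE 0.15, adjusted p = 0.0127), and lost its call without MMI+T3 replicate 1 (adjusted p = 0.07).

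Other hydrolases of foreign compounds and of lipids were counted in MMI+T3 against MMI. Of 17 xenobiotic ester, amide and epoxide hydrolases outside the family, 0 rose and 7 fell, with a median log2 fold change of -0.35. The carboxymethylenebutenolidase homologue Cmbl fell by 1.23 (SE 0.15, adjusted p = 0.000277), the soluble epoxide hydrolase Ephx2 by 1.14 (SE 0.15, adjusted p = 0.000416) and the paraoxonase Pon1 by 1.16 (SE 0.16, adjusted p = 0.00057) on the log2 scale. Of 20 lipid hydrolases and related genes tested, phospholipases included, 11 rose and 4 fell, with a median of 0.50. Pnpla3, a lipid droplet acylhydrolase, had 1396, 1631 and 2489 counts in MMI+T3 libraries, against 3, 15 and 6 counts in MMI libraries (log2 fold change 7.90, SE 0.37, adjusted p = 4.84e-07, and 8.63 without MMI replicate 2). Lipoprotein lipase, Lpl, fell by 2.33 (SE 0.18, adjusted p = 1.28e-05). These counts stand beside 9.83% and 7.18% of all genes.

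Pnpla2, the adipose triglyceride lipase, had 95.29, 105.1 and 110.6 CPM in MMI+T3 libraries, against 71.98, 63.35 and 79.15 CPM in MMI libraries (log2 fold change 0.52, SE 0.14, adjusted p = 0.025). Its adjusted p was 0.0842 and 0.0756 without MMI+T3 replicates 2 and 3 and 0.0739 and 0.0765 without MMI replicates 1 and 2. Arylacetamide deacetylase, Aadac, an esterase of the endoplasmic reticulum counted in both lists, had 252.9, 308.2 and 253.8 CPM in MMI+T3 libraries, against 504.7, 426.1 and 333.2 CPM in MMI libraries (log2 fold change -0.65, SE 0.17, adjusted p = 0.0244). Its adjusted p was 0.11 and 0.0891 without MMI+T3 replicates 1 and 3 and 0.114 and 0.0505 without MMI replicates 1 and 2.

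Of 18 genes of triacylglycerol synthesis and VLDL assembly, 4 rose and 1 fell in MMI+T3 against MMI, beside 9.83% and 7.18% of all genes, with a median log2 fold change of 0.15. Tm6sf2, which supports VLDL lipidation, rose by 0.93 (SE 0.14, adjusted p = 0.00101) and the acyltransferase Agpat2 by 0.73 (SE 0.14, adjusted p = 0.00474). Mttp, the transfer protein that loads lipid onto apolipoprotein B, had 450.9, 491.2 and 457.6 CPM in MMI+T3 libraries, against 323.7, 372 and 226.5 CPM in MMI libraries. Its groups did not overlap (log2 fold change 0.59, SE 0.18, adjusted p = 0.0456), but the adjusted p was 0.101, 0.134 and 0.0935 without MMI+T3 replicate 1, 2 or 3 and 0.0983 without MMI replicate 1.

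Receptors and factors known to regulate Ces genes were also counted. Of 13, 1 rose and 3 fell in MMI+T3 against MMI, beside 9.83% and 7.18% of all genes. The constitutive androstane receptor Nr1i3 had 199.8, 131.7 and 183.4 CPM in MMI+T3 libraries, against 468.6, 510 and 806.4 CPM in MMI libraries. Every MMI+T3 library was below every MMI library, and Nr1i3 fell by 1.82 on the log2 scale (SE 0.24, adjusted p = 0.000385). The glucocorticoid receptor Nr3c1 rose by 0.93 (SE 0.14, adjusted p = 0.00113). The pregnane X receptor Nr1i2 had 74.75, 64.1 and 84.72 CPM in MMI+T3 libraries, against 87.35, 99.66 and 108.3 CPM in MMI libraries, and did not pass (log2 fold change -0.42, SE 0.15, adjusted p = 0.0803), although it passed with all 9 libraries in 1 fit (-0.41, adjusted p = 0.0454). Ppara, the fatty acid receptor, had 61.68, 60.79 and 37.01 CPM in MMI+T3 libraries, against 58.82, 53.52 and 42.04 CPM in MMI libraries (log2 fold change 0.03, SE 0.20, adjusted p = 0.947). Any link between these receptors and the Ces members was not tested.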

How the data were processed

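Liver RNA was sequenced from 3 MMI+T3, 3 MMI and 3 CT libraries, grouped by the labels. The values that the authors deposited are raw read counts, whole numbers for each gene, with MMI+T3 and MMI in one table and CT in a second. The study's methods state stranded poly(A) libraries and STAR alignment, whereas the notes of the submitters list HISAT2 2.1.0, HTSeq 0.6.1p1 and GRCm38. The aligner behind these counts and the handling of multiply matching reads are not given in the sources used here, so near-identical Ces copies are uncertain.

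Models were fitted per comparison, on its 6 libraries and all genes, in edgeR 4.0.16 under R 4.3.3. TMM scaling, the default count filter (minimum count 10) and the quasi-likelihood test were used, and p was adjusted by Benjamini-Hochberg with a threshold of 0.05. Where CT was involved, only genes listed in both tables entered. CPM were scaled over all 9 libraries. Means are given with the SD of 3 libraries. Exact permutation tests used SciPy 1.17.1. The procedure was tested on simulated data. Alternatives were DESeq2 1.42.0, limma-voom (limma 3.58.1), scaling by DESeq2 size factors or the upper quartile, no filter, a filter of 50 counts in 3 libraries, 1 fit of all 9 libraries, a replicate block, and each library left out. Leaving out 1 library leaves 2 in its group.

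Gene models and transcripts were those of GENCODE M21 (GRCm38), and promoter windows those of RefSeq (GRCm38.p6). The members and the lists of related genes and cell markers were chosen with earlier results of these data known. By a rule, the members and other Ces genes were named whatever their result, in other lists at most 3 genes with the smallest adjusted p, and Aadac, Pnpla2, Mttp, Gusb, Nr1i2, Nr1i3 and Ppara always. Flanking genes were named outside it, and 1 of them is not reported here.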

Additional observations from a re-analysis of the deposited data

How the results depend on the processing

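In MMI+T3 against MMI the same 7 members passed under every setting, joined by Ces2a under 3 of them. In MMI against CT, 736 genes passed, 1152 with DESeq2 and 341 to 783 with 1 library left out. There, 2 members passed, 4 with DESeq2 and 1 to 4 with 1 library left out. Values near 0 changed sign. With upper quartile scaling, MMI+T3 against MMI gave -0.02 for Ces1c and -0.00 for Ppara, and MMI against CT gave 0.00 for Ces1d. In MMI against CT, Ces2g was -0.00 without a filter and -0.01 with DESeq2, limma-voom or the replicate block. Ces2b in MMI+T3 against CT was -0.07 with limma-voom. With 1 library left out, log2 fold changes in MMI+T3 against MMI ranged from -0.10 to 0.09 for Ces1c, -0.13 to 0.31 for Ces3a and -0.09 to 0.24 for Ppara. In MMI against CT they ranged from -0.17 to 0.16 for Ces1d, -0.27 to 0.22 for Ces2d-ps and -0.13 to 0.17 for Ces2g, and in MMI+T3 against CT from -1.17 to 0.92 for Ces2b. The cause of these changes was not tested.

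The main fits did not pair libraries by replicate number. Deviations of same-numbered libraries correlated at 0.0643, 0.00313 and 0.167 in MMI+T3 against MMI, at -0.0743, -0.0443 and 0.139 in MMI against CT, and at 0.0986, 0.14 and -0.0355 in MMI+T3 against CT. Differently numbered libraries correlated at -0.126 to 0.0769, -0.123 to 0.149 and -0.216 to 0.117 in the same comparisons. So few values cannot decide whether the numbers pair the libraries. With the replicate block, 2530, 984 and 3759 genes passed, against 2400, 736 and 3548 without it, and the counts of members called were 7, 2 and 7 with it as without it. Among other Ces genes, the block took Ces2d-ps below the threshold in MMI+T3 against MMI (0.95, adjusted p = 0.0553) and past it in MMI+T3 against CT (0.91, adjusted p = 0.0423), where Ces2g passed too (-0.32, adjusted p = 0.0373). With 3 libraries a group, small changes such as that of Ces2a lie near the threshold, and the low counts of Ces1a, Ces1h, Ces2b and Ces2h limit what can be said of them.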
